A study of Mus musculus with 16 samples.

Results

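The 38 genes described here encode the machinery that loads, docks and releases synaptic vesicles, and they were chosen by symbol from textbook roles: 7 SNARE proteins and their handlers, 9 priming and active zone proteins, 4 Rab3 proteins and their effector, 8 vesicle surface and membrane proteins, 7 synaptotagmins and complexins, and 3 vesicular glutamate transporters. All 38 were found in a table of 24062 genes with read counts and in a table of 23991 genes with FPKM values, and all 38 passed the filter on low counts in every comparison. The RNA came from whole brains, cerebellum attached, of 16 female C57BL/6J mice killed on postnatal day 45, 1 library per singly housed mouse and 4 mice per group. The study asked how adolescent nicotine and binge ethanol drinking, alone and together, change brain gene expression. WW mice were offered water in both phases of the schedule and serve as the controls. NW mice drank nicotine at 200 µg/ml for 22 h a day and were given water in place of ethanol. Water-Ethanol mice drank water and had 20% v/v ethanol in drinking-in-the-dark sessions, a protocol that offers ethanol for a few hours of the dark phase so that mice reach high intake, with a last session of 4 h. NE mice had both drugs. In NW and NE mice the nicotine bottles were removed for the sessions, so none was on offer in the 4 h before the brain was taken. The mice set the amount they drank, but no water was offered beside either drug. The whole brain was taken as a single sample, so a change in a single region cannot be seen apart from the rest.

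A vesicle is filled with glutamate by a vesicular transporter, tethered to the reserve pool by synapsins, brought to the active zone by Rab3 and its effectors, and readied there by Munc13 and RIM proteins inside a scaffold of Bassoon, Piccolo and ELKS. The SNARE proteins synaptobrevin on the vesicle and syntaxin and SNAP-25 on the plasma membrane zip together, complexins hold the partly zipped complex, and a synaptotagmin triggers fusion when calcium enters. NSF and its SNAP adaptors then take the spent SNARE complex apart. Ethanol and nicotine both act on transmitter release, ethanol directly at several presynaptic steps and nicotine through receptors on terminals.

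Total counts per mouse ran from 27100352 to 32880979. Markers of neurons were present in every library, and the pan-neuronal score, the mean of centred log2 normalized counts over 8 genes, differed from WW by -0.0343 (NW), -0.0127 (Water-Ethanol) and -0.0156 (NE), with an exact two-sided permutation p of at least 0.371. A pair of mice stood apart by low cerebellar markers. The granule cell score was -1.20 in WW mouse 21 and -0.878 in NW mouse 10, against 0.036 to 0.237 in the 14 other mice. NW mouse 10 also had 3.90% of its counts on Rn45s, a ribosomal RNA gene, and NW mouse 7 had 1.37%, against 0.274% to 0.729% elsewhere. Where leaving out 1 of these 3 mice moved a fold change given below for a gene of the 38 by more than 1.5-fold, the value without it is given.

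Levels were compared between genes by FPKM, fragments scaled to transcript length and to sequencing depth. Snap25, the plasma membrane SNARE with a pair of helices in the complex, was the most abundant of the 38 at 1376 ± 64.5 FPKM (SD, n = 16 mice). Syp, the vesicle membrane protein synaptophysin, followed at 488 ± 17.7, and Vamp2, the main vesicle SNARE of the forebrain, at 467 ± 16.8. Rab3a, the small GTPase that carries vesicles to the active zone, stood at 370 ± 14.7, and Syt1, the calcium sensor for fast synchronous release, at 353 ± 21.7. The Syt1 level exceeded that of 99.55% of the genes in the FPKM table. Nsf, the ATPase that recycles SNARE complexes, had the smallest coefficient of variation of the 38, 2.73%, at 278 ± 7.60 FPKM.

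The scaffold and priming genes were expressed at far lower levels than Snap25 and Vamp2. Unc13a, the Munc13 isoform of most excitatory synapses, had 43.3 ± 3.16 FPKM, Bsn, which encodes Bassoon, 38.4 ± 2.47, and Pclo, which encodes Piccolo, 25.5 ± 3.19. At the low end were Unc13b, another Munc13, at 6.29 ± 0.721, Cplx3, a complexin of retina and of few brain neurons, at 4.15 ± 0.461, and Slc17a8, the vesicular glutamate transporter VGLUT3 of scattered neurons, at 1.43 ± 0.140. Sv2a and Syn2, next to each other in the order at 147 FPKM each, did not differ beyond their spread.

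**Figure D1:**
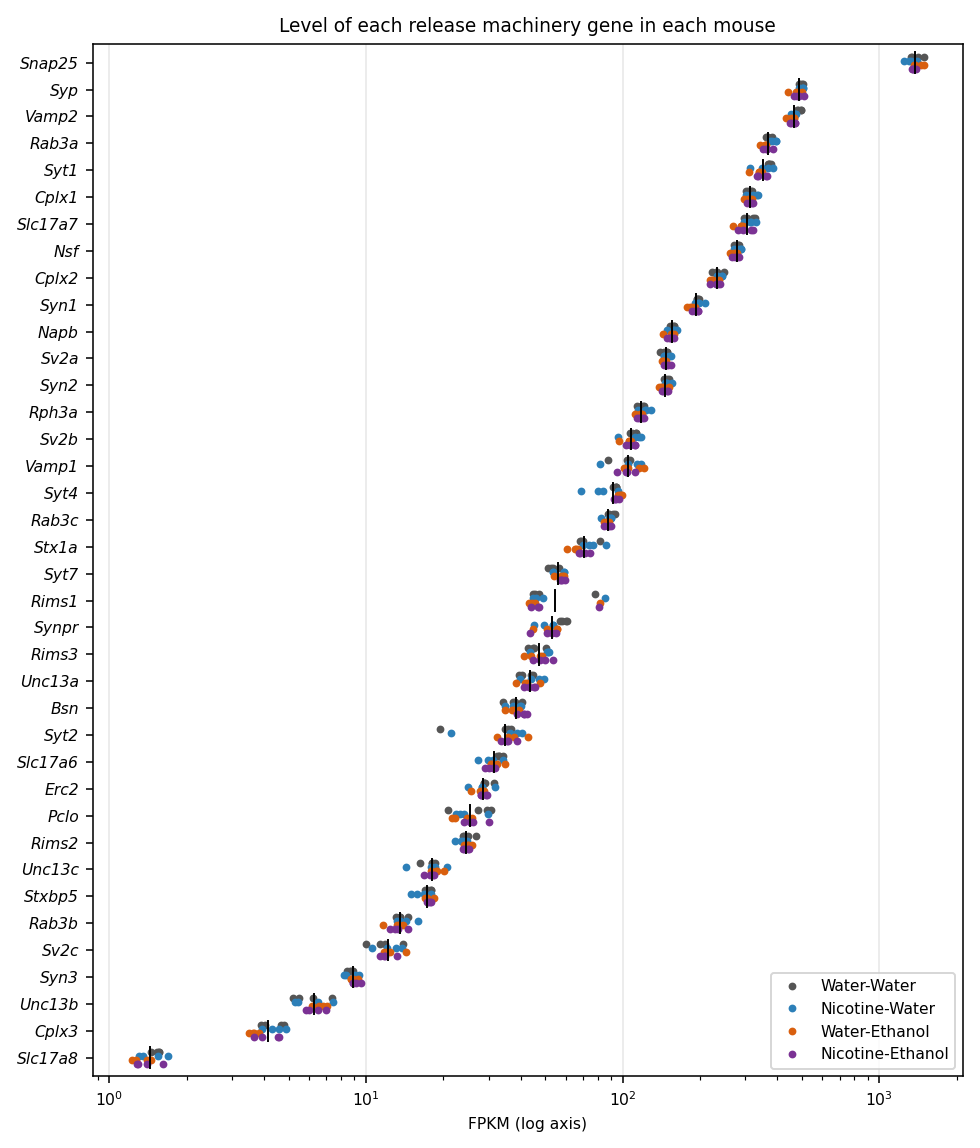
FPKM (x axis, log scale) of each of the 38 genes (y axis, ordered by mean) in each of the 16 mice, coloured by group, with the mean as a black bar. The levels span from 1.43 FPKM for Slc17a8 to 1376 FPKM for Snap25, and Rims1 is the gene whose mice split into a low cluster and a high cluster with 1 mouse of each group in the high one.

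In most families a single paralog held most of the signal. Vamp2 made up 78.2% to 85.3% of the summed FPKM of Vamp1 and Vamp2. Rab3a made up 77.3% to 79.6% of the 3 Rab3 genes listed, and Slc17a7, the transporter VGLUT1 of cortical and cerebellar excitatory neurons, 88.1% to 91.9% of the 3 transporters. Slc17a6, which encodes VGLUT2 of thalamus and brainstem, held 7.62% to 11.4%. Syt1 held 61.1% to 70.5% of the 4 synaptotagmins listed, and Cplx1 and Cplx2 shared the complexin signal at 54.2% to 58.7% and 40.6% to 44.9%. In these families the leading paralog was the same in all 16 mice.

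Rims1, which encodes the RIM1 scaffold that links vesicles to calcium channels, gave a different picture in the 2 deposited tables. Its FPKM was 45.7, 44.6, 78.2 and 47.2 in the WW mice, 85.6, 45.9, 49.0 and 44.8 in the NW mice, 81.9, 43.0, 45.5 and 44.2 in the Water-Ethanol mice and 44.0, 47.3, 46.7 and 80.7 in the NE mice. In each group 1 mouse was thus far above the other 3. Its normalized counts, the counts scaled to a common library size, ran only from 4666 to 5395 across the same mice, and those 4 mice were not the highest: they had 4666, 4968, 4786 and 4880. The ratio of FPKM to normalized count spanned 1.91-fold across mice for Rims1 and at most 1.11-fold for each of the other 37 genes. Of 12579 genes with at least 1 FPKM in every mouse, 0.922% spanned more than 1.5-fold. Which of the annotated Rims1 transcripts the FPKM was computed over is not given in the sources used here.

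The annotated promoters of the genes were matched by symbol to RefSeq windows of 300 bases (build GRCm38.p6, 250 before to 50 after the start). A window was found for 32 of the 38 genes, and Snap25, Vamp2, Rims2, Syn3, Syt4 and Syt7 had none. The start lay within 1000 bases of the 5′ end in the count table for 29 of the 32. The windows had a median GC content of 62.5%, against 52.7% for all 32851 windows. A GC box (GGGCGG or its reverse complement CCGCCC) was in 25 of the 32 windows, 78.1%, against 35.7% of all windows. The 32 windows are 1 per gene, the nearest to the 5′ end in the count table. All windows were counted without that choice and whether or not the gene is expressed in brain, so these shares are over unlike sets. The cyclic AMP response element TGACGTCA was in 1 window, that of Syn1, against 1.79% of all windows, and TATAAA or its reverse complement TTTATA in 2 windows, those of Rab3b and Sv2b, against 13.6%.

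The windows of the genes with the smallest p-values in Water-Ethanol against WW that have one are shown, since these genes head the main comparison: Syt1 on the minus strand at chr10:109010926-109011225, Cplx3 on the minus strand at chr9:57606232-57606531, Slc17a7 on the plus strand at chr7:45163671-45163970 and Synpr on the plus strand at chr14:13284530-13284829. Each is read 5′ to 3′ along its gene, and capitals mark GC boxes on either strand. Syt1 and Synpr hold 1 each, Slc17a7 holds 3, of which a pair on the minus strand overlap by 1 base, and Cplx3 holds none. A match describes the letters and is no evidence of a bound factor.
Syt1: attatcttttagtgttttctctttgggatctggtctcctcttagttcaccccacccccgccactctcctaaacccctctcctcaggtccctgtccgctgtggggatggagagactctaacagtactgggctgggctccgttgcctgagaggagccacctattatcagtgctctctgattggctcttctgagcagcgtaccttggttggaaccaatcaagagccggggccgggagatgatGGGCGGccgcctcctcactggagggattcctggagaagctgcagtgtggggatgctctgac
Cplx3: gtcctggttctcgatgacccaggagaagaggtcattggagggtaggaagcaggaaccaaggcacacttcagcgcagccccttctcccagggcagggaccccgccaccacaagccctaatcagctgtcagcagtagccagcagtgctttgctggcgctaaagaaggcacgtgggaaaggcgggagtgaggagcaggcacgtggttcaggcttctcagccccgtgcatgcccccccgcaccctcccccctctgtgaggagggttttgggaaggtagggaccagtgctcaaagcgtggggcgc
Slc17a7: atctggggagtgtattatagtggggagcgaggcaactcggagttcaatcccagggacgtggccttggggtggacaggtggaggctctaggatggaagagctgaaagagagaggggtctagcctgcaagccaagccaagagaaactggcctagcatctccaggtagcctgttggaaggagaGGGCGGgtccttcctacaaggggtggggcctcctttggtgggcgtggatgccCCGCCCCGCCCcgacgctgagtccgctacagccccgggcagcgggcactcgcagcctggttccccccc
Synpr: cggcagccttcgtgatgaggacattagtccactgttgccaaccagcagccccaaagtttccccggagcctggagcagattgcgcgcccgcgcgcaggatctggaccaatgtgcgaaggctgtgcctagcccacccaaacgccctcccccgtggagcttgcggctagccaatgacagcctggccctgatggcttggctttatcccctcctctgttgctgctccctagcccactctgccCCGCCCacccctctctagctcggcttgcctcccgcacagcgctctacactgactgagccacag

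Spread between mice was small. The median SD of log2 normalized counts within groups was 0.0797 over the 38 genes, against 0.103 over all 15592 genes tested across the 16 mice. Syt2, the fast calcium sensor of cerebellar, brainstem and other hindbrain synapses, was the most variable at 0.313. It had 1916 normalized counts in WW mouse 21 and 2132 in NW mouse 10, against 3146 to 4114 in the 14 other mice. These are the 2 mice with the low cerebellar scores. The part of cerebellar content in the Syt2 values was not tested. Over the 38 genes, NW mouse 10 had the highest value of the 16 mice for 15, Water-Ethanol mouse 15 the lowest for 11, NW mouse 7 the lowest for 8 and WW mouse 21 the lowest for 5.

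**Figure D2:**
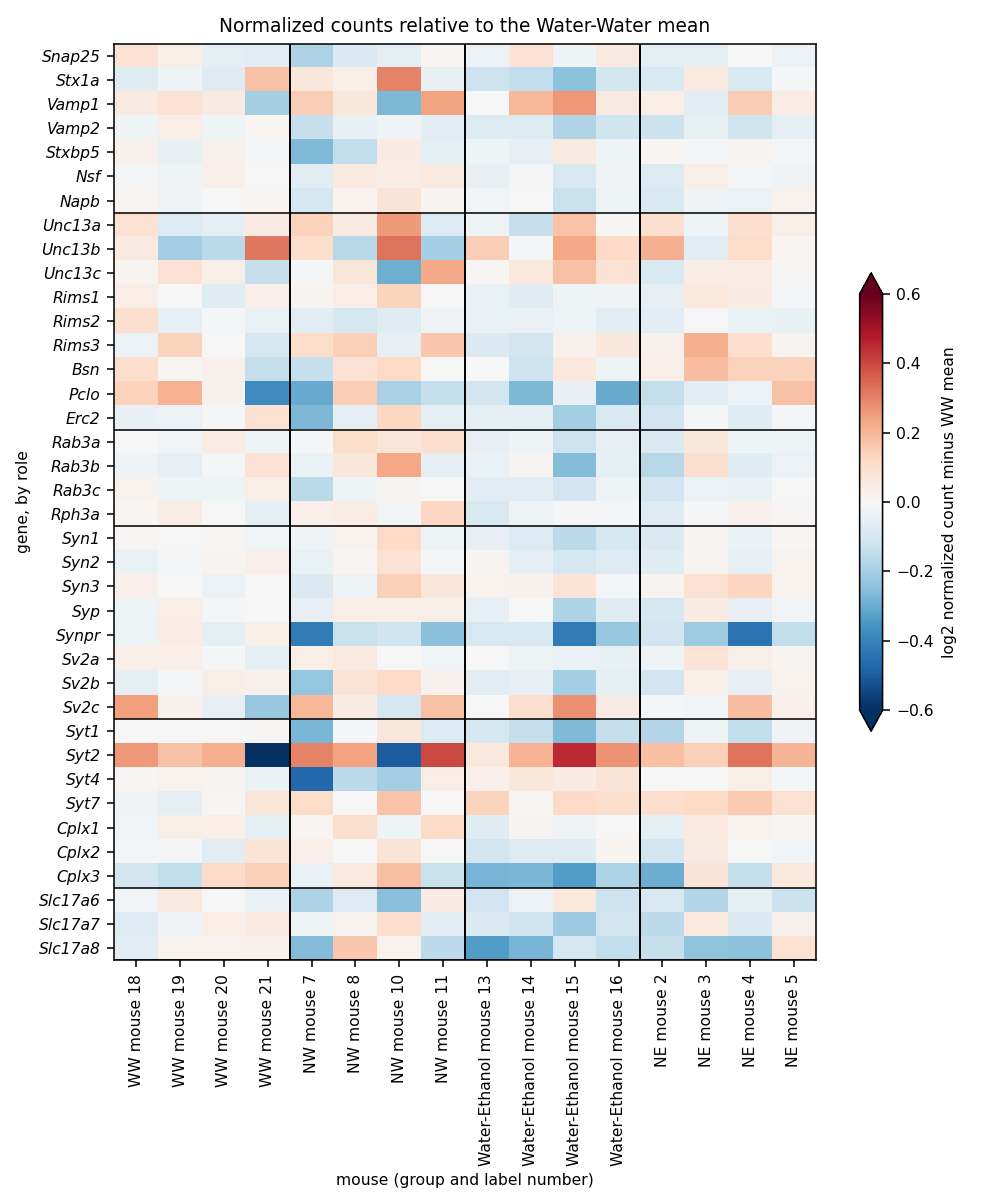
Log2 normalized count of each gene (rows, grouped by role) in each mouse (columns) minus the mean of the 4 WW mice, from blue for lower to red for higher, with colours capped at 0.6 on the log2 scale. The row of Synpr is blue in all 12 drug-drinking mice, and the darkest cell of the Syt2 row is WW mouse 21, which lies beyond the cap.

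In Water-Ethanol against WW, the comparison of binge ethanol alone with water, most of the release genes were measured slightly lower and none passed the test. Of the 38 genes, 28 had a log2 fold change below 0, against 49.4% of all 15323 genes tested, with a median of -0.04 against 0.0015 over all genes. By edgeR's quasi-likelihood test 0 of 38 had an adjusted p under 0.05, against 0.457% of all genes, and the smallest adjusted p was 0.078. At an unadjusted p under 0.05 there were 10 genes, 26.3%, against 19.3% of all genes. Of these, 9 were lower, against 9.05% of all genes, and 1 was higher, against 10.3%. DESeq2 called 2, Vamp2 and Syt1, both lower, 5.26% of the 38 against 2.9% of all genes. By limma on FPKM 0 of the 38 and 0% of all genes were called. Leaving out WW mouse 21 gave 2 calls, Pclo and Syt1, where 5.17% of all genes were called, and holding the cerebellar granule score as a covariate gave the same 2, where 4.66% were. In both of these the share of the 38 was near that of all genes. Pclo had a log2 fold change of -0.19 with all mice and -0.30 without WW mouse 21, its lowest control.

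For 11 genes every Water-Ethanol mouse lay below every WW mouse, 28.9% of the 38, against 5.68% of all genes tested, and for 1 gene, Syt4, every mouse lay above, against 5.13%. The 11 were Stx1a, Vamp2, Erc2, Rab3a, Rab3c, Syn1, Synpr, Syt1, Cplx3, Slc17a7 and Slc17a8. Each has an exact permutation p of 0.0286, two-sided, the smallest that 4 against 4 mice allow. The count was 13 without WW mouse 21, against 9.91% of all genes, and 7 when counts were scaled by library totals alone, without the trimmed-mean normalization, against 4.22%. By FPKM it was 8, against 4.86%, and with a correction for the GC content of transcripts 8, against 5.11%. In both of these Erc2, Rab3a and Rab3c dropped out. In bulk tissue, fewer cells of a type and less RNA per cell cannot be told apart. The forebrain excitatory marker score, over 8 genes, ran from -0.117 to 0.003 in the Water-Ethanol mice and from -0.041 to 0.179 in the WW mice, a difference of -0.115 (exact permutation test, two-sided, p = 0.0857), and the endothelial score over 5 genes differed by -0.109 with no overlap (exact permutation p = 0.0286). The groups overlapped in the microglia score (difference -0.226, exact permutation p = 0.0857), the oligodendrocyte score (-0.178, p = 0.114), the astrocyte score (-0.0734, p = 0.257) and the choroid plexus score (0.178, p = 0.143). The part of cell content in these results was not tested.

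**Figure D3:**
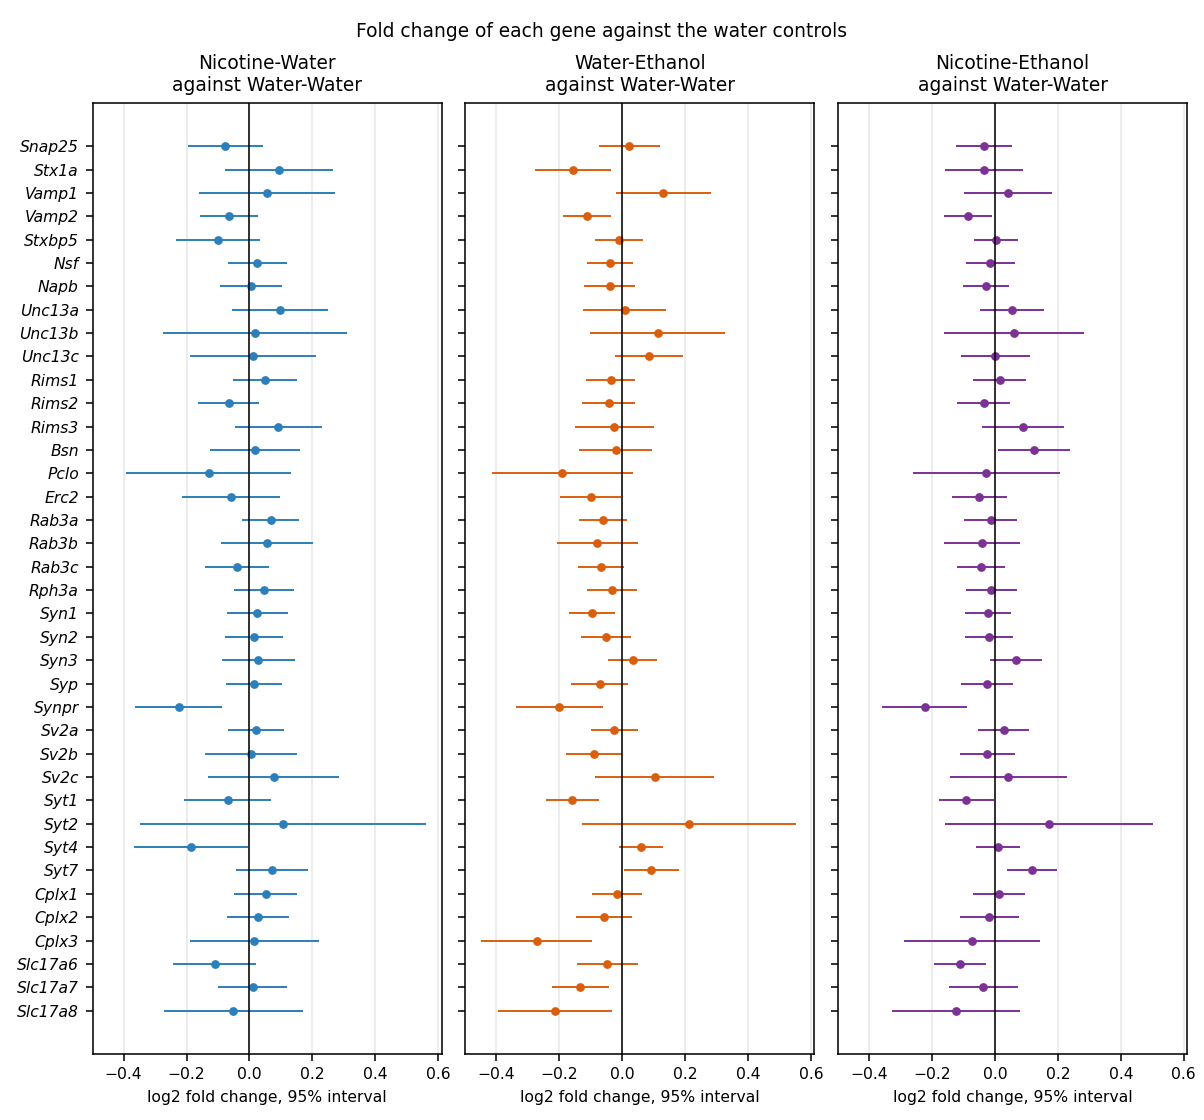
Log2 fold change of each gene (x axis, dots, with 95% intervals as lines) against the WW mice in NW, Water-Ethanol and NE mice, from edgeR fits of the 2 groups compared. Most intervals include 0, Synpr lies left of 0 with its whole interval in all 3 panels, which share the same 4 WW mice, and the Syt2 interval is the widest.

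Syt1 headed the list. It had normalized counts of 49325, 49250, 49335 and 49710 in the WW mice and 45880, 44858, 41073 and 44952 in the Water-Ethanol mice. The coefficient of variation of the WW mice was 0.419%, and all 4 Water-Ethanol mice were lower. The difference was -10.4% (95% interval -15.4% to -5.06%), a log2 fold change of -0.16 ± 0.0383 (SE) with an adjusted p of 0.078 by edgeR. The log2 fold change stayed between -0.18 and -0.13 over 16 other settings, 3 of which called it.

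Synpr, which encodes synaptoporin, a synaptophysin relative found at mossy fibre and olfactory bulb terminals among others, had normalized counts of 4073, 4295, 4009 and 4267 in the WW mice. The Water-Ethanol mice had 3891, 3904, 3111 and 3550, the NW mice 3108, 3796, 3825 and 3499, and the NE mice 3843, 3588, 3057 and 3749. All 12 drug-drinking mice lay below the lowest WW mouse, and the lowest mouse of each group, at 3111, 3108 and 3057, was well below the other 3. The log2 fold change was -0.20 ± 0.0636 (SE, adjusted p = 0.124) in Water-Ethanol, -0.23 ± 0.0630 (adjusted p = 0.318) in NW and -0.22 ± 0.0621 (adjusted p = 0.114) in NE by edgeR. The 3 comparisons share the same 4 WW mice. Its FPKM as a share of Syp plus Synpr was 10.6% ± 0.199 (SD, n = 4) in the controls, and 9.17% ± 0.563, 9.82% ± 0.501 and 9.43% ± 0.968 in NW, Water-Ethanol and NE mice.

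The olfactory bulb score was set beside Synpr mouse by mouse. Over 8 marker genes it was 0.311, 0.159, 0.308 and 0.196 in the WW mice, 0.266, 0.284, -0.807 and -0.217 in the Water-Ethanol mice, 0.047, 0.186, 0.049 and -0.503 in the NW mice and 0.206, -0.011, -0.570 and 0.095 in the NE mice. The lowest score of the Water-Ethanol group and of the NE group was in the mouse with the lowest Synpr of that group. In NW the lowest score was in mouse 11 and the lowest Synpr in mouse 7. In WW the lowest score was in mouse 19, which had the highest Synpr. The groups overlapped in this score for Water-Ethanol (difference -0.362, exact permutation p = 0.286), NW (difference -0.299, p = 0.0571) and NE (difference -0.313, p = 0.0857). The part of olfactory bulb content in the Synpr values was not tested.

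Vamp2 had normalized counts of 27664, 28895, 27633 and 28408 in the WW mice, 26567, 26707, 24818 and 25879 in the Water-Ethanol mice and 25698, 27286, 25918 and 27143 in the NE mice. Both groups given ethanol lay below all WW mice. The difference from WW was -7.48% (95% interval -12.3% to -2.36%) in Water-Ethanol, with an adjusted p of 0.125 by edgeR, and -5.69% (95% interval -10.5% to -0.591%) in NE, with an adjusted p of 0.244. With a correction for the GC content of transcripts the NE log2 fold change was -0.15 in place of -0.09. In the NW mice it had 25574, 27273, 27716 and 26892 normalized counts, and the highest of them was above the lowest WW mouse. By FPKM, with library totals alone and with the GC correction, every NW mouse also lay below every WW mouse. The NW difference from WW was -4.48% (95% interval -10.4% to 1.79%), with an adjusted p of 0.698 by edgeR.

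Cplx3 had the largest fold change of the 38 in this comparison by edgeR. It had normalized counts of 312, 304, 366 and 372 in the WW mice and 278, 279, 267 and 295 in the Water-Ethanol mice, so the gap between the groups was narrower than the spread within WW. The log2 fold change was -0.27 ± 0.0810 (SE, adjusted p = 0.110). Slc17a7 had 23937, 24819, 25941 and 26257 normalized counts in WW and 23761, 23204, 21656 and 23269 in Water-Ethanol, a log2 fold change of -0.13 ± 0.0415 (adjusted p = 0.120). The other transporters were lower as well by measured value, Slc17a6 at -0.05 and Slc17a8 at -0.21, with adjusted p of 0.588 and 0.189.

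By role, the Water-Ethanol values were lower for 4 of 4 genes of the Rab3 group (Rab3a, Rab3b, Rab3c and the effector Rph3a), with log2 fold changes from -0.08 to -0.03, for 3 of 3 transporters, 6 of 8 vesicle membrane genes, 5 of 7 SNARE genes, 6 of 9 priming and active zone genes and 4 of 7 synaptotagmins and complexins. Stx1a, which encodes the plasma membrane SNARE syntaxin 1A, had 3814, 3937, 3803 and 4526 normalized counts in WW and 3678, 3618, 3378 and 3716 in Water-Ethanol, a log2 fold change of -0.16 (adjusted p = 0.160), or -0.10 without WW mouse 21. Syn1, which encodes synapsin I, had -0.10 (adjusted p = 0.159), and its exons overlap those of Araf on the opposite strand. On the other side, Syt7, a slow high-affinity calcium sensor of asynchronous release and vesicle replenishment, had 0.09 (adjusted p = 0.233) or 0.05 after the GC correction, Vamp1, the vesicle SNARE of hindbrain and spinal cord, 0.13 (adjusted p = 0.323), and Syt2 0.21 with a 95% interval from -0.13 to 0.55. Without WW mouse 21 Vamp1 was at 0.07 and Syt2 at 0.04. Snap25 differed by 0.02 with an interval from -0.07 to 0.12, and by -0.00053 without WW mouse 21. For 29 of the 38 genes the 95% interval lay within 0.25 of 0 on the log2 scale, and for 37 within 0.5.

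In NE against WW, nicotine and ethanol together against water, 23 of the 38 genes were below 0, against 48.6% of all 15313 genes, and the median was -0.02 against 0.0039 over all genes. That count was not stable. It was 18 with the GC correction (median 0.0023) and 18 without NE mouse 2 (median 0.0035), but 28 without WW mouse 21 (median -0.019). edgeR called 0, against 0.313% of all genes, with a smallest adjusted p of 0.114. At an unadjusted p under 0.05 there were 6 genes, 15.8%, against 17.5% of all genes, 4 of them lower (8.23% of all genes) and 2 higher (9.22%). DESeq2 called 1, Synpr, and the granule score covariate gave 1, Syt7, at an adjusted p of 0.0468. A single call is 2.63% of the 38, and these settings called 2.55% and 2.2% of all genes. By limma on FPKM 0 were called, against 0.181% of all genes with log2(FPKM + 1) and 0.188% with log2(FPKM + 0.1). Every NE mouse lay below every WW mouse for 4 genes, Vamp2, Synpr, Syt1 and Slc17a6, against 5.51% of all genes, and above for 1, Syt7, against 5.22%. Without NE mouse 5 the lower count was 7, against 8.03% of all genes, and with the GC correction it was 2, Vamp2 and Synpr, against 3.82%.

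Syt7 had normalized counts of 10138, 9870, 10350 and 10808 in the WW mice and 11023, 11159, 11462 and 10973 in the NE mice, a difference of 8.54% (95% interval 2.75% to 14.6%) with an adjusted p of 0.143 by edgeR. With the GC correction its log2 fold change was 0.05, against 0.12 without. Slc17a6 had 3956, 4155, 3989 and 3892 in WW and 3745, 3541, 3845 and 3653 in NE, a difference of -7.43% (95% interval -12.6% to -1.98%, adjusted p = 0.170). Bsn had 18612, 17467, 17612 and 15679 in WW, where mouse 21 was lowest, and 17660, 19706, 19054 and 19078 in NE, so the groups overlapped, and its log2 fold change was 0.12 (adjusted p = 0.256), 0.08 without WW mouse 21 and 0.06 with the GC correction. Syt1 in NE was 43740, 48351, 44563 and 48655, below all WW mice, with a log2 fold change of -0.09 (adjusted p = 0.272), or -0.04 with the GC correction.

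**Figure D4:**
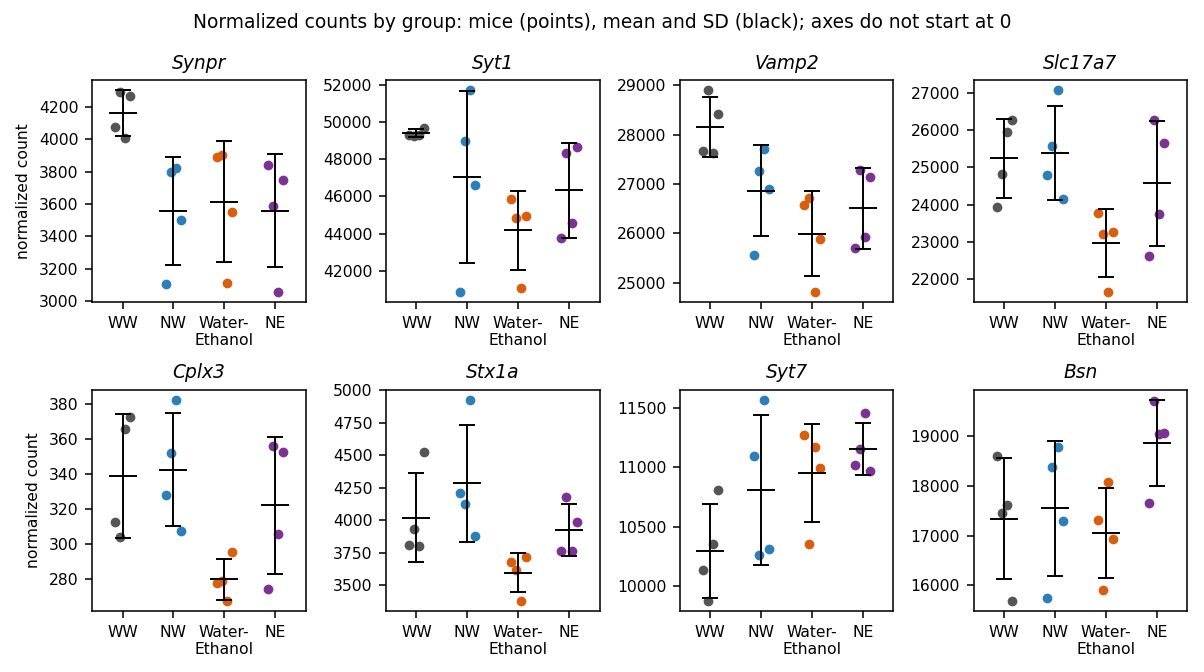
Normalized counts (y axis, not starting at 0) of 8 genes in each mouse by group, with the mean and SD of 4 mice in black. The 4 WW mice of Syt1 lie between 49250 and 49710, the Water-Ethanol mice of Syt1, Synpr, Vamp2, Slc17a7, Cplx3 and Stx1a lie below all WW mice, and the NE mice of Syt7 lie above them.

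In NW against WW, nicotine alone against water, 12 of 38 genes were below 0, against 46.4% of all 15344 genes, and the median was 0.02 against 0.0096 over all genes. The direction rested on NW mouse 10. Without it 22 of the 38 were below 0, with a median of -0.019 against -0.0006 over all genes. With any other single mouse left out 11 to 16 were below 0. edgeR and limma on FPKM called 0 of the 38 and 0% of all genes, and DESeq2 called 0 of the 38, against 0.624%. At an unadjusted p under 0.05 by edgeR there were 2 genes, against 8.44% of all genes. Both were lower, against 6.49% of all genes, and 0 were higher, against 1.95%. The lower genes were Synpr and Syt4, a synaptotagmin of dense-core and other vesicles that does not trigger fast release. By normalized counts, Synpr was the only gene of the 38 whose NW mice were all below the WW mice, against 4.25% of all genes. None lay above, against 1.71%. Vamp2 joined Synpr below with library totals alone (5.22% of all genes), with FPKM (4.98%) and with the GC correction (2.39%). With that correction Napb lay above, against 1.62%. Leaving out both WW mouse 21 and NW mouse 10 gave 0 calls as well.

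Syt4 had 10198, 10297, 10277 and 9877 normalized counts in WW and 7340, 9110, 8826 and 10461 in NW, with mouse 7 lowest and mouse 11 above every WW mouse. Its log2 fold change was -0.18 ± 0.0828 (SE, adjusted p = 0.591 by edgeR), -0.10 without mouse 7 and -0.07 after the GC correction. Slc17a6 had 3520, 3783, 3356 and 4141 in NW and a log2 fold change of -0.11 (adjusted p = 0.654), or -0.17 without NW mouse 11. Stxbp5, which encodes tomosyn, an inhibitor of SNARE assembly, had 4704, 4483, 4707 and 4577 in WW and 3840, 4164, 4773 and 4447 in NW, a log2 fold change of -0.10 (adjusted p = 0.686). That value was -0.05 without NW mouse 7, -0.16 without NW mouse 10 and -0.04 after the GC correction. Rab3a had 13473, 13347, 13939 and 13279 in WW and 13402, 14536, 14185 and 14477 in NW, a log2 fold change of 0.07 (adjusted p = 0.685) or 0.02 after the GC correction, and its exons overlap those of Mpv17l2 on the opposite strand.

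The NW fold changes of the 38 genes followed the GC content of their transcripts, which ran from 40.7% for Syt4 to 59.0% for Syt7. Spearman's rho between log2 fold change and GC content was 0.68 over the 38 genes in NW against WW, 0.36 in NE against WW and 0.03 in Water-Ethanol against WW, and over all genes it was 0.46, 0.37 and 0.22. These describe genes of the same libraries, which are no independent replicates. After a correction that removes each library's own trend with GC content, rho in NW was 0.0030 and 19 of the 38 genes were below 0 in place of 12. The same correction took rho over the 38 genes to -0.24 in NE and -0.26 in Water-Ethanol, so a relation of the other sign remained there. The part of GC content in the NW values was not tested beyond that correction.

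**Figure D5:**
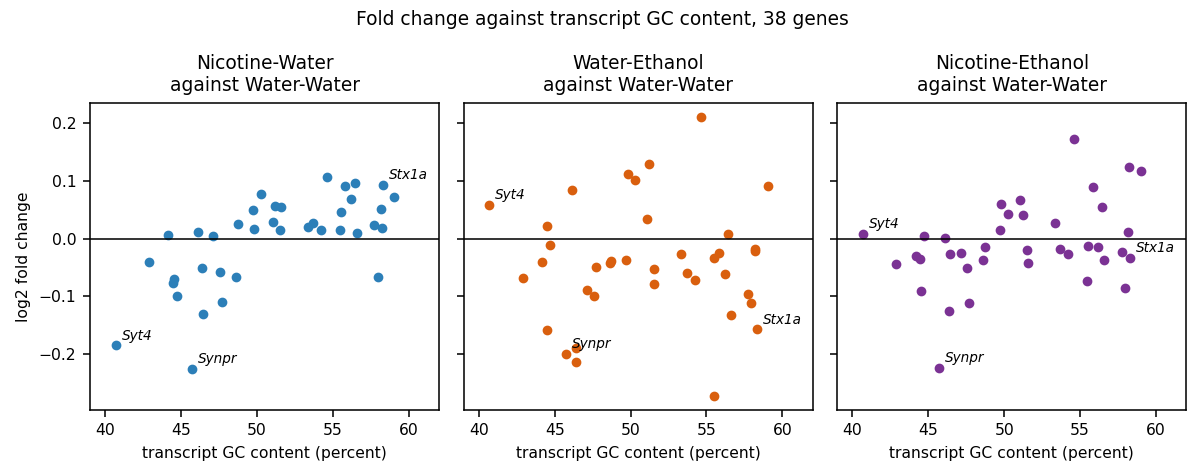
Log2 fold change against WW (y axis) of the 38 genes by transcript GC content in percent (x axis), for NW, Water-Ethanol and NE mice. The NW points rise from Syt4 at the low GC end to Stx1a near the high end (rho 0.68), and the Water-Ethanol points show no such order (rho 0.03).

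In NE against Water-Ethanol, nicotine added to ethanol, 29 of the 38 genes were above 0 and 9 below, against 50.5% of all 15319 genes below 0, and the median was 0.03. The paper reports higher ethanol intake and blood ethanol in NE than in Water-Ethanol mice on the last day. Nicotine and a larger ethanol dose therefore cannot be told apart in this comparison. edgeR and limma called 0 of the 38 and 0% of all genes, and DESeq2 called 0 of the 38, against 0.0101%. The smallest adjusted p by edgeR was 0.834. At an unadjusted p under 0.05 there were 4 genes, 10.5%, against 5.8% of all genes. All 4 were higher, against 3.2% of all genes, and 0 were lower, against 2.6%. They were Bsn, Stx1a, Pclo and Cplx3. Bsn had 17317, 15901, 18079 and 16933 normalized counts in Water-Ethanol and a log2 fold change of 0.14 ± 0.0442 (SE). Stx1a had 3763, 4176, 3761 and 3988 in NE and was the only gene with every NE mouse above every Water-Ethanol mouse, against 1.97% of all genes, with a log2 fold change of 0.12. None had every mouse below, against 1.55%.

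Pclo had 13230, 11849, 13846 and 11580 normalized counts in Water-Ethanol and 12925, 13629, 13936 and 16108 in NE, with the groups overlapping and a log2 fold change of 0.16, or 0.09 without NE mouse 5. In WW it had 15707, 16488 and 14533 in mice 18, 19 and 20 and 10998 in mouse 21. Cplx3 had 274, 356, 306 and 352 in NE, from below to above the Water-Ethanol values, and 0.20. Rims3, a short RIM, had 1267, 1244, 1370 and 1408 in Water-Ethanol and 1367, 1561, 1442 and 1360 in NE, and 0.11, or 0.07 without NE mouse 3. Leaving out single mice kept the smallest adjusted p of any of the 38 at 0.358 or more.

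Over all 16 mice, the ethanol effect, the mean of Water-Ethanol and NE minus the mean of WW and NW, was below 0 for 27 of the 38 genes, with a median of -0.04. edgeR called 0, against 4.5% of all 15592 genes, and the smallest adjusted p was 0.086, for Stx1a at a log2 fold change of -0.14. At an unadjusted p under 0.05 there were 9 genes, 23.7%, against 22.9% of all genes, 7 of them lower (10.1% of all genes) and 2 higher, Syt4 and Syt7 (12.8% of all genes). DESeq2 called 1, Stx1a, against 5.25% of all genes, and limma on FPKM called 0, against 5.57%. The GC correction gave 2 calls, Stx1a lower and Syt4 higher, against 5.47% of all genes. Leaving out NW mouse 11 gave the same 2 (4.74% of all genes), leaving out NW mouse 7 gave 1, Syt1 (5.34%), and leaving out WW mouse 21 and NW mouse 10 together gave 0 (6.77%), with Stx1a at -0.08. In these settings the share of the 38, at most 5.26%, was near or below that of all genes. The nicotine effect had 5 genes at an unadjusted p under 0.05, 13.2%, against 10.3% of all genes, and the interaction had 0, against 6.76%. For both, edgeR, DESeq2 and limma called 0 of the 38. Of all genes, edgeR and limma called 0%, and DESeq2 called 0.494% in the nicotine effect and 0.00489% in the interaction. In the interaction the 95% interval lay within 0.25 of 0 on the log2 scale for 24 genes.

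A wider list of 95 other genes of release and vesicle recycling, of which 93 were in the count table and 92 were tested, was set beside the 38. In the pairwise comparisons edgeR called 0 of 92. At an unadjusted p under 0.05 it had 23 genes (25%) in Water-Ethanol, against 19.3% of all genes, with 14 of them lower (9.05% of all genes). It had 15 (16.3%) in NE, against 17.5%, with 8 of them lower (8.23%), and 6 (6.52%) in NW, against 8.44%, with 5 of them lower (6.49%). In NE against Water-Ethanol it had 7 (7.61%), against 5.8%, with 1 of them lower (2.6%). The NE and NW shares lay below those of all genes. In Water-Ethanol the smallest p-values were those of Ppfia1, a liprin scaffold of the active zone, at a log2 fold change of 0.17 (adjusted p = 0.0953), Vapa, a VAMP-associated protein of the endoplasmic reticulum, at -0.12 (adjusted p = 0.101), and Stx3, a syntaxin, at 0.31 (adjusted p = 0.107). In NW they were those of Sypl, a synaptophysin-like protein, at -0.29 (adjusted p = 0.207), Lin7c, a scaffold, at -0.30 (adjusted p = 0.251), and Vamp7, a vesicle SNARE of endosomes, at -0.41 (adjusted p = 0.260). Vamp7 was at -0.25 in NE (adjusted p = 0.0835). In NE against Water-Ethanol they were those of Svop at 0.12, Slc6a17, a vesicular amino acid transporter, at 0.10 and Syt13 at 0.11, each with an adjusted p of 0.834.

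The ethanol effect across the 16 mice was called for 2 of the 92 genes, against 4.5% of all genes, and both rose. Rims4, which encodes the short RIM4, had 618, 652, 617 and 628 normalized counts in WW, 631, 653, 603 and 654 in NW, and 688, 688, 652 and 670 in Water-Ethanol mice. The NE mice had 724, 778, 688 and 730. The NE mice lay above all mice without ethanol, and the lowest Water-Ethanol mouse lay within their range. Its log2 fold change was 0.15 ± 0.0339 (SE, adjusted p = 0.0196 by edgeR). Itsn1, which encodes intersectin 1, a scaffold of vesicle endocytosis and replenishment, had 7403, 7212, 7276 and 7199 in WW, 6948, 7097, 7198 and 7583 in NW, and 7863, 7410, 8214 and 7758 in Water-Ethanol mice. The NE mice had 7952, 7927, 8330 and 7798. Its log2 fold change was 0.13 ± 0.0271 (adjusted p = 0.0150), and 1 Water-Ethanol mouse lay below the highest NW mouse. Both were called in all 24 other settings tried.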

How the data were processed

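RNA-seq of 16 whole brains was measured in 4 groups of 4 mice, taken from the group given in each sample's labels. The authors deposited whole read counts per gene, not normalized, and FPKM values from the Cufflinks tools. The submitters' processing notes name bcl2fastq 1.8.4, Trimmomatic 0.32, TopHat2 and the mouse build mm10. The counting program and its use of strand are not given in the sources used here.

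The members and lists were chosen with earlier results of these data known. Counts were tested in R 4.3.3 with edgeR 4.0.16 (quasi-likelihood test, TMM normalization, default filter on low counts, Benjamini-Hochberg adjustment over all genes, threshold 0.05). Pairwise comparisons used the 2 groups compared, and the ethanol, nicotine and interaction contrasts all 16 mice. Normalized counts are counts divided by the effective library size and multiplied by its mean. Single values were compared by exact permutation tests on log2(normalized count + 0.5). Gene positions and exon overlaps are those of the count table, and GC content is the mean over GENCODE M21 transcripts. Where exons overlap on opposite strands, reads of the 2 genes may not be told apart. Each library is a separate mouse.

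The genes named with full values are those with an adjusted p under 0.05, the 5 with the smallest p in each pairwise comparison, and those whose groups do not overlap in the same direction in both Water-Ethanol and NE. Of the wider list they are those called and the 3 with the smallest p in each. Others were named after their values were seen. Alternatives were RLE factors, DESeq2 1.42.0, no filter, a fit of all mice, limma 3.58.1 on log2(FPKM + 1) or log2(FPKM + 0.1) for genes of at least 1 FPKM in 4 mice, a GC correction, the granule score as a covariate and each mouse left out. Leaving out a pair of mice, and the scalings tried on non-overlapping genes, were chosen after seeing the data. Each test was first checked on simulated counts in which known genes were changed. Promoter windows were handled with Python 3.11.15 and pandas 2.3.3.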

Additional observations from a re-analysis of the deposited data

Results flagged for a closer look

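In 208 groups of 4 values, for the 38 genes and 14 marker scores in each group, 15 values stood apart: the highest or lowest mouse was so far from the nearest of the other 3, relative to the whole range, that it passed the 95% critical value. Chance flags about 1 in 20 groups. Several fell on the mice with low cerebellar markers. In WW mouse 21 the granule score was -1.202 against 0.073 to 0.216 in the other WW mice, the Purkinje score was -1.304, Syt2 had 1915.9 normalized counts against 3401 to 3614, and Vamp1 had 6542.9 against 7804 to 8024. In NW mouse 10 the granule score was -0.878, the Purkinje score -0.86, the thalamus and brainstem score -0.588, the astrocyte score -0.15 and the endothelial score -0.033.

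NW mouse 7 was low for Nsf, with 27806 normalized counts where its group otherwise had 30111 to 30414, and for Syp, at 31790 against 33694 to 33864. Water-Ethanol mouse 15 was low for Sv2b, at 14524 against 16022 to 16185, and its exons overlap those of 1500012K07Rik on the opposite strand. Slc17a8 had 181.6 in WW mouse 18 against 193.56 to 194.11, and Syt4 had 10428 in NE mouse 4 against 10125 to 10147. The oligodendrocyte score was -0.22 in Water-Ethanol mouse 16.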

How the results depend on the processing

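The number of the 38 genes called was 0 in the edgeR test of all 7 comparisons. In Water-Ethanol against WW it was 2 with DESeq2, 2 with the granule score as a covariate, and 0 to 2 when each mouse was left out, with the 2 calls without WW mouse 21. In NE against WW it was 1 with DESeq2, 1 with the granule score and 0 in every fit that left out a mouse. In the ethanol effect it was 1 with DESeq2, 2 with the GC correction, and 0 to 2 when mice were left out, 2 without NW mouse 11 and 1 without NW mouse 7. In the other 4 comparisons every alternative gave 0. The cause of these changes was not tested. Genes below WW in every Water-Ethanol mouse numbered 7 with library totals alone (4.22% of all genes). By FPKM they numbered 8 (4.86%), with the GC correction 8 (5.11%) and with a mouse left out 11 to 13 (6.79% to 9.91%). Those below WW in every NE mouse numbered 2 with the GC correction (3.82% of all genes). With a mouse left out they numbered 4 to 7 (6.52% to 9.28%), 7 being without NE mouse 5 (8.03%). Of 341 fold changes under alternatives, for 21 pairs of a named gene and a pairwise comparison, 335 kept their direction and side of the threshold. Another 6 passed the threshold only under the alternative and 0 reversed. The pairs were picked from these same data for small p-values or groups without overlap, which made a reversal unlikely. The tally is therefore no test of how stable the 38 genes are. It also leaves out Pclo in Water-Ethanol against WW and all calls in the ethanol effect. Over all 38 genes, the number below 0 in NW and in NE did shift with the setting, as given above. The order by median in place of mean FPKM differed for 5 genes. No paired analysis was possible because the mouse numbers in the labels are not shared between groups. With 4 mice per group, exact tests of single values cannot go below p = 0.0286.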
